A study of Mus musculus with 16 samples.

Results

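Chemokines and their receptors were taken as the array features whose gene symbol is that of a numbered Cxcl, Ccl, Xcl or Cx3cl ligand, or of a Cxcr, Ccr, Xcr, Cx3cr or atypical (Ackr) receptor. The rule found 60 features of 59 genes among 19572 features with a gene symbol, of which 39 were ligands and 21 receptors. It uses names only and no measured value. All 59 genes matched RefSeq by Entrez identifier, and 0 symbols had changed. Ccl21b had 2 features, and the first of these carried the same values as Ccl21c on 16 of 16 arrays, so the pair is 1 measurement.

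Chemokines are small secreted proteins that steer migrating cells along a gradient, and each binds one or several G protein-coupled receptors on the responding cell. Cxcl1, Cxcl2 and related ligands draw neutrophils through Cxcr2, whereas many Ccl ligands act on monocytes, dendritic cells and lymphocytes. A few members also serve tissue cells: Cxcl12 and Cxcr4 guide migrating neurons, and the membrane-bound Cx3cl1 is made by neurons and read by microglia through Cx3cr1. Atypical receptors bind chemokines without the usual G protein signal and thereby remove them.

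Messenger RNA was measured on 16 arrays of sorted olfactory mucosa cells from S100a5-tauGFP mice, in which S100a5, an activity-dependent gene of olfactory sensory neurons, drives a green fluorescent protein. The mice were C57BL/6 of both sexes, aged 7 to 12 weeks. Each of 8 pools held the tissue of 3 mice and was sorted into 2 fractions. Odor-exposed mice gave 4 titled GFP− and 4 titled GFP+ arrays, and vehicle mice gave the same number of each. All mice carried the reporter and spent 40 h singly in clean air chambers. From 26 h on, odor mice received a mixture of undecanal and bourgeonal, a pair of aldehyde odorants, for 10 s every 20 min, and vehicle mice received filtered air.

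The sample records disagree on the fractions. The cell type field names the opposite GFP status to the title on 16 of 16 arrays, and the titles are used here. S100a5, which drives the reporter, was higher in the titled GFP− fraction in all 8 pools, by 1.31 ± 0.20 log2 units with odor (SE, limma adjusted p = 0.00016) and 1.00 ± 0.20 with vehicle (adjusted p = 0.0019). This goes against the titles, and each direction below reads as titled GFP− minus titled GFP+. Markers of mature sensory neurons were above background on every array, 7 of 7 in each group, with a mean log2 signal of 17.2 to 17.3 on odor titled GFP− arrays and 16.9 to 17.1 on odor titled GFP+ arrays. The vehicle arrays lay at 17.2 to 17.3 in titled GFP− and 17.1 in titled GFP+ cells. Replicate arrays correlated at 0.979 to 0.995 across all features.

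A feature counted as above background where its log2 signal exceeded the 95th percentile of that array's GC-graded background probe sets, which lay between 6.87 and 7.41. By this measure 13 of the 60 features were above background on all 4 arrays of at least 1 group, against 9744 of 19572 features overall. They were 8 ligands (Ccl3, Ccl6, Ccl9, Ccl17, Ccl25, Ccl27a, Cx3cl1 and Cxcl2) and 5 receptors (Ackr1, Ccr2, Ccr7, Cxcr2 and Cxcr4). Another 3 (Ackr4, Ccl21a and Ccr1) passed on some arrays only. The remaining 44, of which 30 were ligands and 14 receptors, were below background on all 16 arrays, with signals between 2.52 and 7.16. By group, 3 features were above background on all 4 arrays of odor titled GFP− cells and 10 on those of odor titled GFP+ cells. The counts were 4 in vehicle titled GFP− cells and 13 in vehicle titled GFP+ cells. All features were not counted by group, so these counts have no share beside them. The median signal over all features was also higher in titled GFP+ cells. It was 6.76 to 6.84 and 7.10 to 7.12 on odor titled GFP− and titled GFP+ arrays. On vehicle arrays it was 6.77 to 6.84 and 7.15 to 7.32.

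The upstream sequences of 5 of the genes above background in titled GFP+ cells and below it in titled GFP− cells are shown. Their shared pattern of signal runs through the results below. Cxcl2 was above background on 3 of 4 odor titled GFP+ arrays, and Ccr2 and Cxcr2 had the pattern but are not shown. Each sequence is the 250 bases before the RefSeq transcript start in mouse assembly GRCm38.p6, 5′ to 3′ along the gene's strand. The stretches are chr11:83649379-83649628 for Ccl3, chr11:83593088-83593337 for Ccl6 and chr11:83578637-83578886 for Ccl9, all on the minus strand. Cxcl2 has chr5:90903649-90903898 on the plus strand and Cxcr4 has chr1:128592300-128592549 on the minus strand. Capitals mark matches to a motif on either strand, which are the NF-kB consensus (a 10-base site named for the inflammatory transcription factor), TATAAA (the core promoter TATA box) and TGANTCA (the AP-1 site, where N is any base).
Ccl3: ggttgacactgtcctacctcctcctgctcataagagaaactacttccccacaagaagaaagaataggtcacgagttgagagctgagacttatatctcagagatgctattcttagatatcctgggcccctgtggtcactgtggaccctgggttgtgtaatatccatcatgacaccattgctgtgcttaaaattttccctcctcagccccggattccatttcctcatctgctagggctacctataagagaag
Ccl6: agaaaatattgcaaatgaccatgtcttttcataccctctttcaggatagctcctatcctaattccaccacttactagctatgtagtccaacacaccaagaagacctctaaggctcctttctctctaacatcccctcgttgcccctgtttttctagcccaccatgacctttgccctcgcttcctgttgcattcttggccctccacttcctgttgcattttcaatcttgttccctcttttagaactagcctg
Ccl9: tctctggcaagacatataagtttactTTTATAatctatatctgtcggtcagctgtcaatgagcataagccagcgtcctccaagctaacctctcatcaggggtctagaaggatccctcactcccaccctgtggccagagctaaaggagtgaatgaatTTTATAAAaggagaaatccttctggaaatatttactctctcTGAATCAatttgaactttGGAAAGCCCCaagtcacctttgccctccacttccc
Cxcl2: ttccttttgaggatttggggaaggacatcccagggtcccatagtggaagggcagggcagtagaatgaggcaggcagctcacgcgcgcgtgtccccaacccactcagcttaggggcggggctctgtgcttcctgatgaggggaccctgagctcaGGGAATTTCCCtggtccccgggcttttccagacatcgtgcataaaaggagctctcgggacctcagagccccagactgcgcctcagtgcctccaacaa
Cxcr4: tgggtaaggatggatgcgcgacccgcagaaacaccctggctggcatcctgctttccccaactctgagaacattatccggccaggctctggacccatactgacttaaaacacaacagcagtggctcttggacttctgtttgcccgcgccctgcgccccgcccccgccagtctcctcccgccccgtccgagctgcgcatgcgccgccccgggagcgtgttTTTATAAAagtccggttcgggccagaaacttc
Ccl9 held all 3 motifs, with the NF-kB match on the minus strand at 35 to 26 bases before the start, and its matches at -94 and -92 are 1 overlapping TATAAA run read on both strands. Cxcl2 held an NF-kB match on each strand, and these overlap, starting at -97 and -96. Cxcr4 held TATAAA on both strands at -32 and -30. Ccl3 and Ccl6 held none of the 3 in these 250 bases. Over the 44 members with a promoter in the table, 11 held the NF-kB consensus, 13 held TATAAA and 5 held TGANTCA. Of 21263 mouse protein-coding promoters of the same length, 7.91% held the NF-kB consensus, 11.6% held TATAAA and 6.13% held TGANTCA. A match is a string of letters and was not tested as a binding site.

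The fractions differed in several chemokines and receptors, among them Ccl3, Ccl6, Ccl9, Cxcr4, Ccr2 and Cxcr2, which were higher in the titled GFP+ fraction whether or not odor had been given. In odor pools 19 of 60 features passed the limma test at an adjusted p under 0.05, with 3 higher and 16 lower in titled GFP− cells. Over all features, 22.2% passed, 12.2% higher and 9.98% lower. In vehicle pools 16 of 60 passed, with 1 higher and 15 lower, against 16.9% of all features, 7.05% higher and 9.82% lower. The median difference over the 60 was -0.13 log2 units in odor pools and -0.06 in vehicle pools, where the medians over all features were 0.14 and 0.13. Receptors that passed were lower without exception, 8 of 21 in odor pools and 7 of 21 in vehicle pools. Ligands that passed went both ways, with 3 higher and 8 lower of 39 in odor pools and 1 higher and 8 lower in vehicle pools. A set of 15 features passed in both treatments, all of them lower in titled GFP− cells. The share of all features lower in both treatments was not counted, and it cannot exceed the 9.82% lower in vehicle pools. For 9 of the 19 odor calls and 5 of the 16 vehicle calls, the signal was below background in both fractions, so those calls rest on values near the array floor and get no fold.

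**Figure D1:**
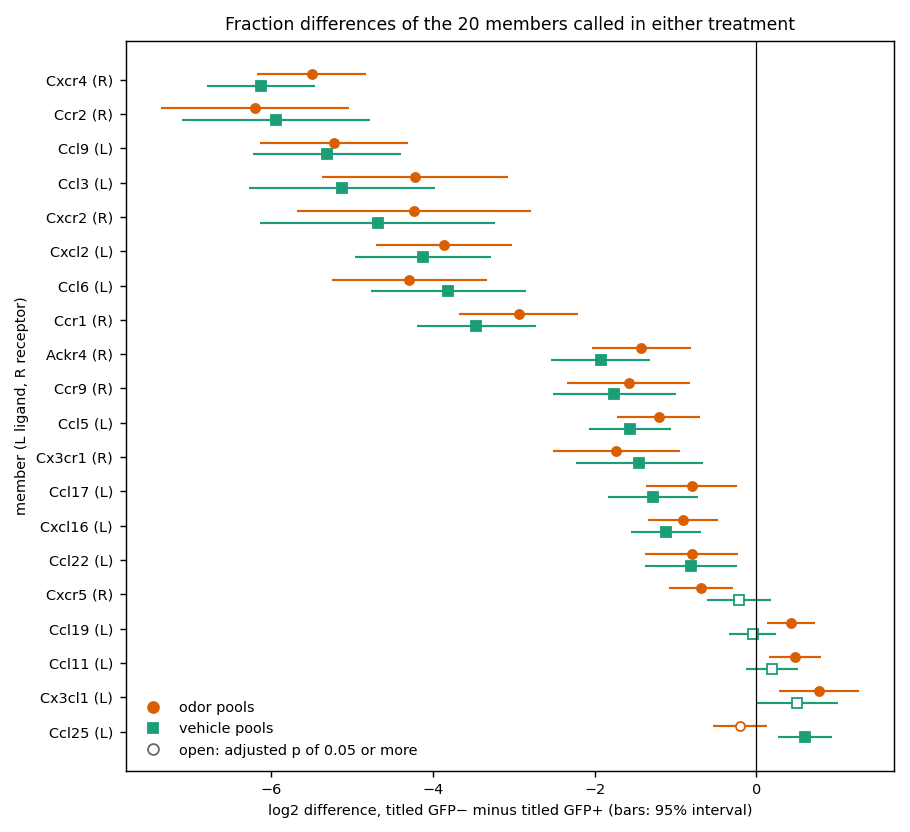
Fitted log2 differences, titled GFP− minus titled GFP+, with 95% intervals for the 20 chemokine (L) and receptor (R) features that passed in either treatment (circles: odor pools; squares: vehicle pools; open symbols: adjusted p of 0.05 or more). The 8 features at the top, from Cxcr4 to Ccr1, lie far left of 0 in both treatments, and Cx3cl1, Ccl25, Ccl11 and Ccl19 lie right of 0 in the treatment where they passed.

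Among the ligands, Ccl3 (MIP-1α, made by activated macrophages and neutrophils and bound by Ccr1) had log2 signals of 6.90, 5.85, 5.01 and 6.50 in odor titled GFP− cells, against 11.26, 9.90, 9.23 and 10.74 in odor titled GFP+ cells. In vehicle pools they were 6.31, 5.67, 5.0 and 5.46 in titled GFP− cells and 11.58, 10.77, 9.12 and 11.48 in titled GFP+ cells. Replicate 3 was the lowest array in each of the 4 groups, and the fractions did not overlap. Because the titled GFP− arrays gave no signal above background, only a bound can be stated: Ccl3 was at least 8.26-fold higher in titled GFP+ cells with odor and at least 11.8-fold higher with vehicle (adjusted p of 2.9e-05 and 3.2e-06, limma). Such bounds set the titled GFP+ mean over all its arrays against each array's own lowest signal above background, or the gene's own value where that was higher. The neighbouring Ccl4, whose annotated span overlaps that of Ccl3, was below background on all 16 arrays.

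Ccl9, a rodent ligand of Ccr1 made by myeloid cells, read 4.87, 4.53, 4.79 and 4.72 in odor titled GFP− cells and 10.13, 10.09, 10.49 and 9.09 in odor titled GFP+ cells. With vehicle it read 4.99, 3.21, 5.15 and 5.06 in titled GFP− cells and 11.02, 9.14, 9.53 and 9.99 in titled GFP+ cells. Every titled GFP+ array was thus above every titled GFP− array, and Ccl9 was at least 6.54-fold higher in titled GFP+ cells with odor and 6.70-fold with vehicle (adjusted p of 2.3e-07 and 1.9e-07). Ccl6, its neighbour and also a rodent myeloid ligand of Ccr1, read 4.45, 5.50, 5.17 and 5.22 in odor titled GFP− cells and 10.02, 9.83, 9.76 and 7.89 in odor titled GFP+ cells. Its vehicle signals were 4.85, 5.38, 5.0 and 5.33 in titled GFP− cells and 9.94, 8.16, 9.53 and 8.16 in titled GFP+ cells. The fractions again did not overlap, and the bounds were 4.40-fold and 3.41-fold (adjusted p of 3.3e-06 and 1.2e-05).

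Cxcl2 (MIP-2), a neutrophil attractant that acts on Cxcr2, read 3.94, 3.36, 4.21 and 4.32 in odor titled GFP− cells and 9.28, 7.60, 7.61 and 6.79 in odor titled GFP+ cells. Vehicle signals were 4.35, 3.77, 4.25 and 3.90 in titled GFP− cells and 8.90, 8.12, 7.87 and 7.85 in titled GFP+ cells. It was above background on 3 of 4 odor and 4 of 4 vehicle titled GFP+ arrays and on no titled GFP− array. The bounds were modest, at least 1.50-fold with odor and 2.01-fold with vehicle higher in titled GFP+ cells (adjusted p of 2.3e-06 and 1.1e-06). The other ligands of Cxcr2 on the array, Cxcl1, Cxcl3 and Cxcl5, were below background on all 16 arrays. On chromosome 5, Cxcl3, Cxcl15, Cxcl1 and Cxcl2 follow one another among the coding genes, as Ccl5, Ccl9, Ccl6, Ccl3 and Ccl4 do on chromosome 11.

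Cxcr4, the receptor that holds neutrophils in the bone marrow and guides migrating neurons, showed the smallest adjusted p of all members. It read 5.21, 5.04, 5.48 and 4.76 in odor titled GFP− cells and 11.41, 10.40, 10.63 and 10.06 in odor titled GFP+ cells. Its vehicle signals were 4.69, 4.48, 4.58 and 4.54 in titled GFP− cells and 11.74, 9.97, 10.59 and 10.52 in titled GFP+ cells. The fractions lay far apart on every array, with Cxcr4 at least 10.5-fold higher in titled GFP+ cells with odor and 11.5-fold with vehicle (adjusted p of 3.9e-09 and 9e-10).

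Ccr2, the receptor by which monocytes follow Ccl2, read 3.77, 3.81, 4.60 and 4.64 in odor titled GFP− cells and 11.47, 10.59, 10.98 and 8.58 in odor titled GFP+ cells. With vehicle it read 4.17, 3.47, 4.69 and 4.50 in titled GFP− cells and 11.60, 9.47, 10.07 and 9.44 in titled GFP+ cells. No arrays overlapped, and the bounds were 8.98-fold and 7.83-fold higher in titled GFP+ cells (adjusted p of 5e-07 and 7.3e-07). Cxcr2, the receptor that brings neutrophils to a site of Cxcl1 or Cxcl2, read 6.26, 4.90, 6.46 and 6.16 in odor titled GFP− cells and 11.87, 9.30, 10.81 and 8.73 in odor titled GFP+ cells. Its vehicle signals were 5.32, 5.57, 4.71 and 4.79 in titled GFP− cells and 11.59, 8.87, 10.37 and 8.29 in titled GFP+ cells. It spread more within the titled GFP+ groups (SD of 1.43 with odor and 1.49 with vehicle) than Ccl3, Ccl6, Ccl9, Cxcl2, Cxcr4 and Ccr2 did, with bounds of 7.68-fold and 6.08-fold (adjusted p of 0.00029 and 0.0001).

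Ccr1, the shared receptor of Ccl3, Ccl6 and Ccl9, was near background even where it was highest. It read 5.07, 3.92, 4.34 and 4.54 in odor titled GFP− cells and 7.50, 7.63, 8.11 and 6.38 in odor titled GFP+ cells. In vehicle pools it read 4.05, 3.58, 3.40 and 3.88 in titled GFP− cells and 7.33, 6.62, 7.96 and 6.84 in titled GFP+ cells. Of these titled GFP+ arrays, 3 with odor and 2 with vehicle were above background, and the bounds were 1.12-fold and 1.01-fold although the fractions did not overlap (adjusted p of 1.2e-05 and 1.8e-06).

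**Figure D2:**
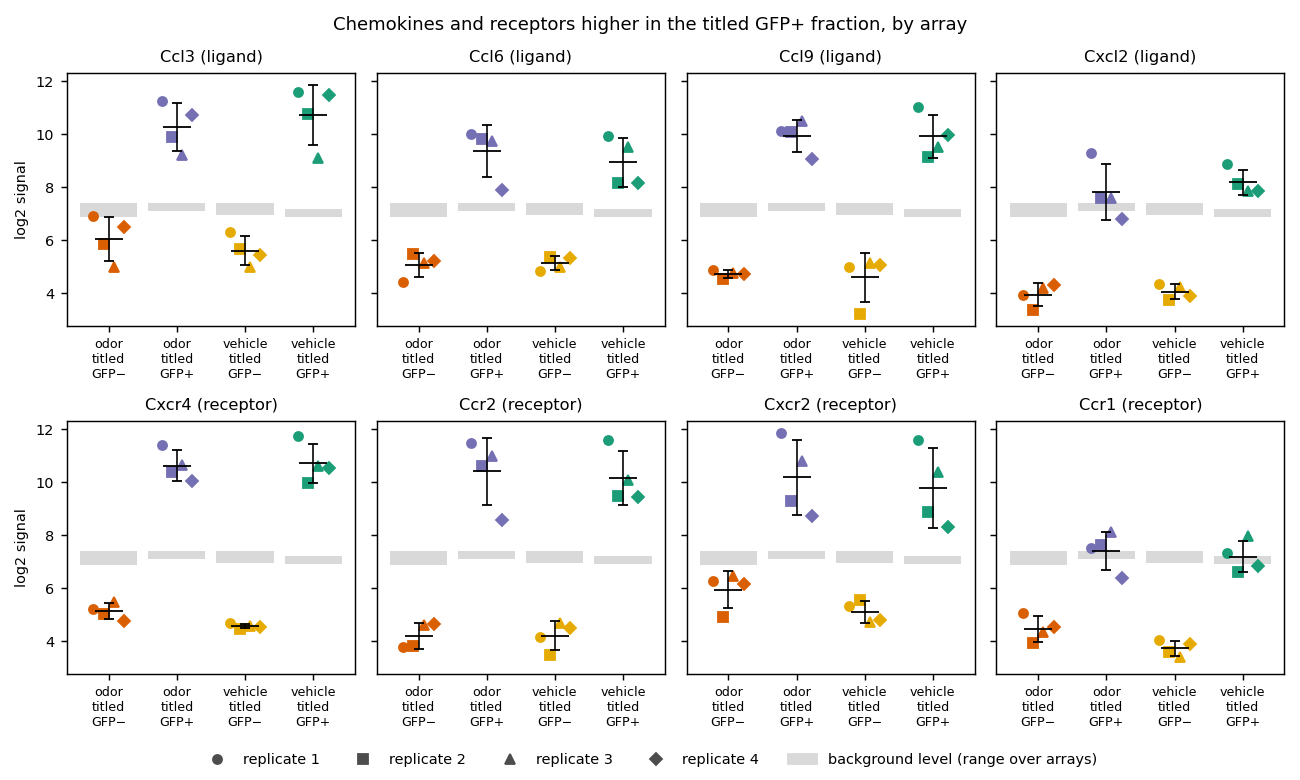
Log2 signal of Ccl3, Ccl6, Ccl9, Cxcl2, Cxcr4, Ccr2, Cxcr2 and Ccr1 on each of 16 arrays (marker shape: replicate; bars: mean ± SD, n = 4 per group; grey: range of the background level in that group). In all 8 panels the titled GFP− arrays lie below the grey band or at its lower edge, and the titled GFP+ arrays lie above them without overlap.

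Markers of leukocytes moved with these members. All 11 neutrophil markers were lower in titled GFP− cells in both treatments, with a mean over the list of 5.30 to 5.89 on odor titled GFP− arrays and 13.1 to 14.8 on odor titled GFP+ arrays. On vehicle arrays the mean was 5.18 to 5.67 in titled GFP− cells and 13.5 to 15.2 in titled GFP+ cells. All 11 were above background on every titled GFP+ array, and among titled GFP− arrays only Ngp, a granule protein gene, passed, on 1 odor array. Of 10 measured monocyte and macrophage markers 9 were lower, with means of 5.07 to 6.32 and 7.24 to 8.29 on odor titled GFP− and titled GFP+ arrays, and 5.09 to 5.74 and 7.40 to 8.42 on the vehicle ones. The macrophage markers Adgre1, Aif1, C1qc and Fcgr1 were below background on all 16 arrays, whereas Csf1r, Lyz2 and Mrc1 were above it on all 8 titled GFP+ arrays. Ms4a7 was above it on 4 odor and 3 vehicle titled GFP+ arrays. C1qa and C1qb passed on 3 and 2 vehicle titled GFP+ arrays and on no odor array. T and NK cell markers were lower in 1 of 6 with odor and 3 of 6 with vehicle. Their means were 4.39 to 4.77 and 4.88 to 5.81 on odor titled GFP− and titled GFP+ arrays, and 4.27 to 4.47 and 5.04 to 6.86 on the vehicle ones. B cell markers were lower in 3 of 3 with odor and 2 of 3 with vehicle, mast and basophil markers in 2 of 4 in both, and mesenchymal markers in 0 of 5. Markers of other epithelial cells also moved, with 5 of 6 sustentacular markers lower with odor and 4 of 6 with vehicle, and 4 of 4 microvillar and 4 of 4 immature neuron markers lower in both. Basal cell markers were lower in 2 of 5 and Bowman gland markers in 1 of 4, in both treatments. Of all features, 9.98% were lower with odor and 9.82% with vehicle. Some of these marker calls rest on signals below or near background. Cd3e, Cd79b, Ms4a1 and Mcpt8 were below it on all odor arrays, and Neurog1 on all 16 arrays. Cd3e, Nkg7, Gzma and Mcpt8 were above it on 1 vehicle titled GFP+ array each. The part of these cell types in the chemokine differences was not tested. In sorted bulk RNA, fewer cells of a type and less RNA per cell cannot be told apart.

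Within the titled GFP+ arrays some members ran in the same order as the neutrophil markers. The mean of the 11 neutrophil markers was 14.8, 13.8, 14.6 and 13.1 on odor replicates 1 to 4 and 15.2, 13.7, 14.2 and 13.5 on vehicle replicates 1 to 4. In both treatments replicate 1 was highest, then 3, 2 and 4, and the Cxcr2 and Ccr2 signals given above fell in that same order. Cxcr4 did so with odor, while with vehicle its replicates 2 and 4 changed places. Ccl3 did not, being lowest on replicate 3 in both treatments. Ccl6, Ccl9 and Ccr1 had the order in neither treatment, and Cxcl2 had it with odor only. The order was not particular to neutrophil markers. With vehicle, mast and basophil means (6.70, 5.55, 5.78 and 5.26) and Bowman gland means (8.39, 8.06, 8.20 and 7.86) had it too. The vehicle means of monocyte and macrophage, T and NK, and basal markers ran as Cxcr4 did. With odor no other marker list had the neutrophil order. These orders are a description without a test, since odor and vehicle arrays of the same number deviated together (correlations of 0.147 to 0.547 across features) and the 8 arrays may not be independent.

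**Figure D3:**
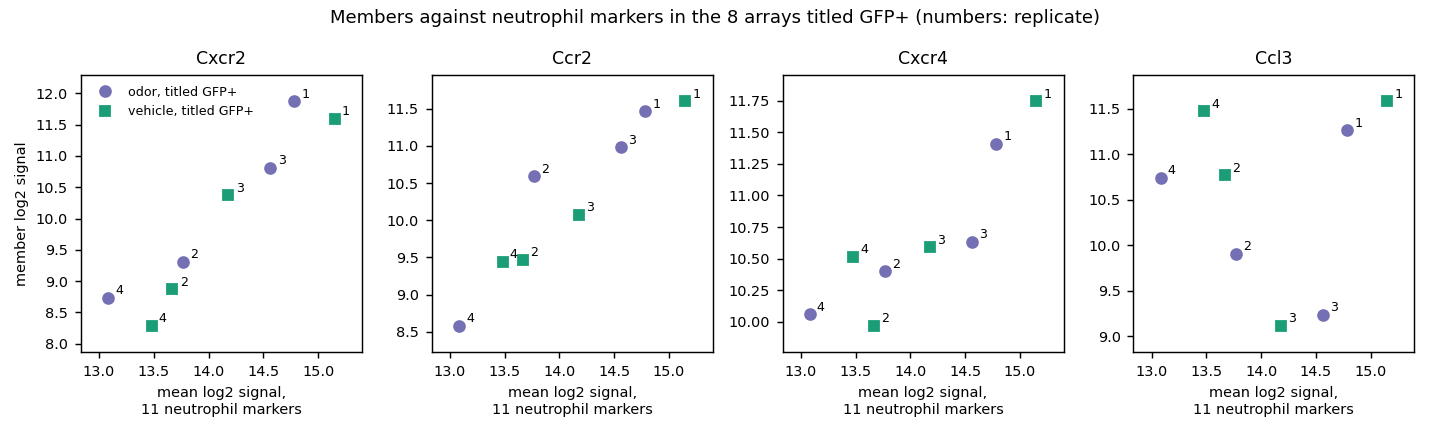
Log2 signal of Cxcr2, Ccr2, Cxcr4 and Ccl3 (vertical axes, each on its own scale) against the mean log2 signal of 11 neutrophil markers (horizontal axis) on the 8 titled GFP+ arrays, with circles for odor, squares for vehicle and the replicate number beside each point. Cxcr2, Ccr2 and Cxcr4 are high where the marker mean is high, whereas Ccl3 has replicate 3 lowest and replicate 1 highest in each treatment.

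Other members passed in both treatments at or below the background level. Ackr4, an atypical receptor that clears Ccl19, Ccl21 and Ccl25, read 5.50, 4.65, 5.34 and 5.09 in odor titled GFP− cells and 6.67, 6.84, 6.99 and 5.78 in odor titled GFP+ cells. In vehicle pools it read 4.61, 5.35, 4.55 and 5.02 in titled GFP− cells and 7.36, 6.66, 6.99 and 6.24 in titled GFP+ cells, where 2 of 4 arrays passed background. The fractions did not overlap, with adjusted p of 0.002 and 0.00013 and no fold at this level. Cx3cr1, the fractalkine receptor of monocytes and microglia, read 4.17, 3.60, 3.60 and 3.22 in odor titled GFP− cells and 6.71, 5.36, 4.82 and 4.62 in odor titled GFP+ cells. Its vehicle signals were 3.80, 4.09, 4.04 and 3.84 in titled GFP− cells and 6.14, 4.86, 5.04 and 5.52 in titled GFP+ cells, with adjusted p of 0.0031 and 0.012 and no fold, since all 16 arrays were below background. The vehicle call ended without vehicle replicate 1 (adjusted p = 0.0997) or 4 (adjusted p = 0.0636).

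Cxcl16, a membrane-bound ligand of Cxcr6, read 6.31, 5.77, 6.17 and 5.89 in odor titled GFP− cells and 6.89, 7.16, 6.91 and 6.80 in odor titled GFP+ cells. Vehicle pools gave 5.50, 5.82, 6.16 and 5.38 in titled GFP− cells and 6.99, 6.94, 6.25 and 7.12 in titled GFP+ cells, with no array above background (adjusted p of 0.0045 and 0.0009). Its receptor Cxcr6 read 3.95, 3.46, 4.16 and 3.75 in odor titled GFP− cells and 3.96, 3.50, 3.59 and 4.00 in odor titled GFP+ cells, which overlap. Its vehicle signals also overlapped, at 4.50, 4.08, 4.20 and 4.22 in titled GFP− cells and 4.54, 3.99, 3.56 and 3.68 in titled GFP+ cells. Ccl5, Ccl22 and Ccr9 passed in both treatments below background, and Cxcr5, Ccl11 and Ccl19 passed in odor pools only, also below background. Ccl22 had adjusted p of 0.043 and 0.049, close to the threshold.

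Ccl17, a ligand of Ccr4 made by dendritic cells, lay at the edge of background. It read 5.76, 6.68, 6.57 and 6.53 in odor titled GFP− cells and 6.95, 7.06, 7.60 and 7.12 in odor titled GFP+ cells. In vehicle pools it read 6.51, 6.56, 6.49 and 6.35 in titled GFP− cells and 8.69, 7.48, 7.55 and 7.31 in titled GFP+ cells. The fractions did not overlap, and in vehicle pools Ccl17 was at least 1.49-fold higher in titled GFP+ cells (adjusted p = 0.0025). With odor the fitted difference was -0.80 ± 0.26 (SE, adjusted p = 0.04) with no bound above 1, and leaving out any 1 odor replicate ended that call (adjusted p of 0.0591 to 0.135). Of 4 dendritic and antigen presenting markers measured, H2-Aa and H2-Ab1 were above background on all 8 titled GFP+ arrays, while Flt3 and Itgax were below it on all 16. The list mean was 4.83 to 5.50 and 7.57 to 8.09 on odor titled GFP− and titled GFP+ arrays, and 4.73 to 5.12 and 7.44 to 8.96 on vehicle ones. Their part in the Ccl17 difference was not tested.

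Only Cx3cl1 among the members above background passed as higher in titled GFP− cells with odor, and only Ccl25 with vehicle. Cx3cl1, the fractalkine made by neurons and epithelia, read 7.33, 8.40, 7.60 and 7.44 in odor titled GFP− cells and 7.03, 6.86, 6.47 and 7.30 in odor titled GFP+ cells. Its vehicle signals were 7.98, 8.08, 7.43 and 7.59 in titled GFP− cells and 7.33, 7.39, 6.91 and 7.41 in titled GFP+ cells. It was higher in titled GFP− cells in 8 of 8 pools without overlap between fractions, by 0.78 ± 0.23 with odor (SE, adjusted p = 0.026) and 0.51 ± 0.23 with vehicle (adjusted p = 0.155). The vehicle difference passed after renewed quantile normalization, at 0.82 (adjusted p = 0.0149), and with arrays centred on their feature median, at 0.91 (adjusted p = 0.00393). The odor call ended without odor replicate 2, at 0.52 (adjusted p = 0.137), or replicate 3, at 0.66 (adjusted p = 0.112). After centring on the olfactory receptor median, which itself was higher in titled GFP− cells, the difference with odor was 0.31 (adjusted p = 0.515). On chromosome 8 Cx3cl1 lies between Ccl22 and Ccl17 with no other coding gene between them, and both of those neighbours passed in the opposite direction, Ccl22 below background.

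Ccl25, a ligand of Ccr9 best known from thymus and gut epithelium, was above background on all 16 arrays. It read 7.86, 7.73, 7.91 and 7.86 in odor titled GFP− cells and 8.27, 8.06, 7.90 and 7.95 in odor titled GFP+ cells. In vehicle pools it read 8.27, 8.35, 8.59 and 7.91 in titled GFP− cells and 7.31, 7.87, 7.64 and 7.87 in titled GFP+ cells. The vehicle fractions did not overlap, with a difference of 0.60 ± 0.16 (SE, adjusted p = 0.014), whereas the odor fractions overlapped, with a difference of -0.20 ± 0.16 (adjusted p = 0.385). The vehicle call ended without vehicle replicate 1 (0.49, adjusted p = 0.098) or replicate 3 (0.49, adjusted p = 0.104), and it ended at 0.34 (adjusted p = 0.755) after centring on the receptor median. Its receptor Ccr9 was below background on all 16 arrays.

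Ccl27a, the skin chemokine CTACK, was far above background on all 16 arrays. It read 12.64, 12.78, 12.56 and 12.75 in odor titled GFP− cells and 10.69, 12.54, 12.31 and 12.68 in odor titled GFP+ cells. Its vehicle signals were 13.01, 12.67, 13.01 and 12.88 in titled GFP− cells and 12.49, 12.67, 12.61 and 12.18 in titled GFP+ cells. Odor titled GFP+ replicate 1 stood below the other arrays. Neither difference passed, at 0.63 ± 0.31 with odor (SE, adjusted p = 0.159) and 0.40 ± 0.31 with vehicle (adjusted p = 0.398), and without odor replicate 1 the odor difference was 0.19 ± 0.16 (adjusted p = 0.478). Its annotated span overlaps that of Il11ra1, an interleukin 11 receptor gene, and the near-identical copy Ccl27b was not analysed here, so the signal may not be of Ccl27a alone. Its receptor Ccr10 and the related ligand Ccl28 were below background throughout.

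Ackr1, the Duffy antigen that binds chemokines on venules and red cells, was above background on all 16 arrays and passed in neither fraction comparison. It read 7.94, 8.34, 8.09 and 8.71 in odor titled GFP− cells and 8.51, 7.92, 8.16 and 8.49 in odor titled GFP+ cells. Vehicle pools gave 8.65, 7.90, 8.06 and 7.72 in titled GFP− cells and 7.62, 7.67, 8.34 and 7.78 in titled GFP+ cells. The 95% intervals of the difference were -0.48 to 0.48 with odor and -0.25 to 0.71 with vehicle, with adjusted p of 1.0 and 0.517, although centring each array on its feature median brought the vehicle difference to 0.63 (adjusted p = 0.0219), past the threshold. All 5 endothelial markers were below background on all 16 arrays, and the Ackr1 span overlaps that of Cadm3, a cell adhesion gene. Ccr7, which leads dendritic cells and T cells to lymph nodes, lay at 6.78 to 7.41 in odor titled GFP− cells and 7.19 to 8.03 in odor titled GFP+ cells. Vehicle pools lay at 6.96 to 7.13 in titled GFP− cells and 7.36 to 7.48 in titled GFP+ cells, and neither difference passed (-0.47 ± 0.17 with adjusted p of 0.067, and -0.36 ± 0.17 with adjusted p of 0.173).

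**Figure D4:**
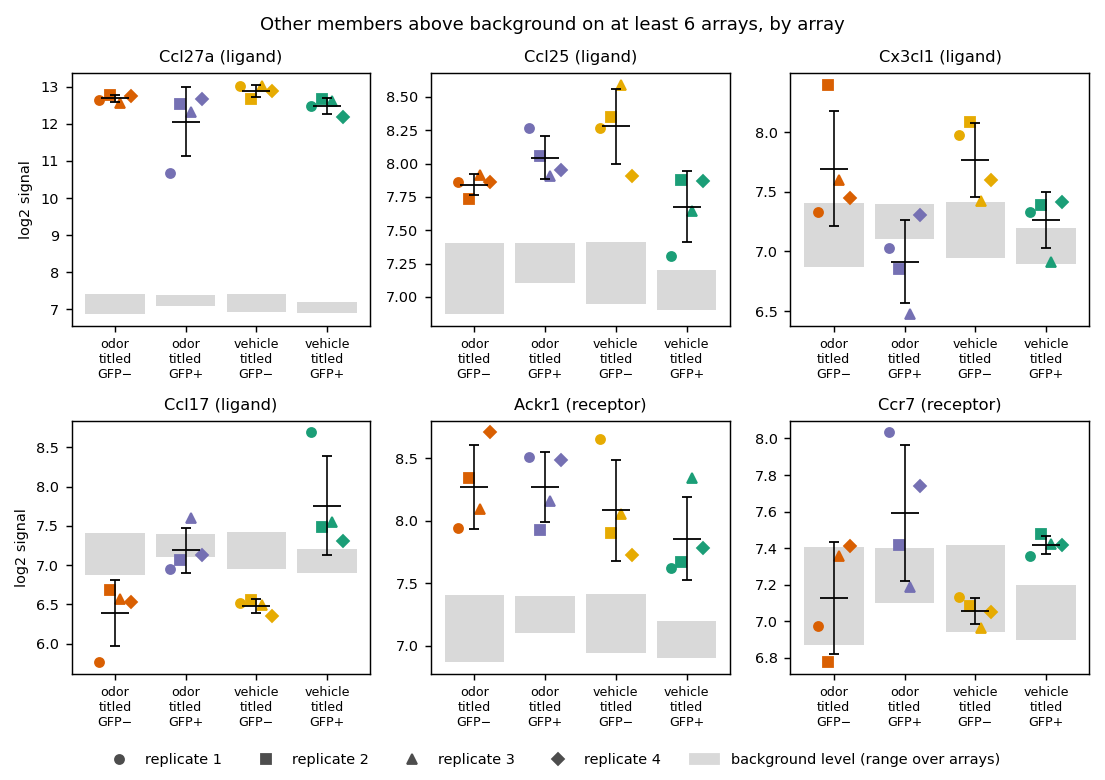
Log2 signal of Ccl27a, Ccl25, Cx3cl1, Ccl17, Ackr1 and Ccr7 on each of 16 arrays (marker shape: replicate; bars: mean ± SD, n = 4 per group; grey: range of the background level in that group; each panel has its own vertical scale). Ccl27a, Ccl25 and Ackr1 lie above background in every group, and the vehicle arrays of Ccl25 lie higher in the titled GFP− fraction.

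Ligands and receptors that bind each other were rarely both above background. Of 16 axes examined, 3 had both sides above background on at least 1 array: Cxcl2 with Cxcr2, Ccl3 with Ccr1, and Ccl21a with Ccr7. In 4 axes only the ligand was (Cx3cl1, Ccl17, Ccl25 and Ccl27a), in 2 only the receptor, and in 7 neither. Cxcr4 was the receptor without its ligand: Cxcl12, its sole chemokine ligand, read 4.40, 4.83, 4.91 and 4.78 in odor titled GFP− cells and 5.40, 4.56, 5.02 and 5.38 in odor titled GFP+ cells. Cxcl12 in vehicle pools read 3.66, 4.45, 4.66 and 4.71 in titled GFP− cells and 5.01, 4.42, 4.61 and 5.28 in titled GFP+ cells, and the fractions overlapped. Its scavenger Ackr3 read 3.63, 3.48, 3.65 and 3.79 in odor titled GFP− cells and 3.69, 3.55, 3.70 and 4.39 in odor titled GFP+ cells. With vehicle Ackr3 read 3.93, 3.83, 3.31 and 3.78 in titled GFP− cells and 3.66, 3.73, 3.97 and 4.61 in titled GFP+ cells, again overlapping. Ccr2 likewise stood without Ccl2, Ccl7 and Ccl12. Ccl2 read 5.03, 5.62, 4.75 and 5.22 in odor titled GFP− cells, 5.57, 5.77, 5.10 and 5.14 in odor titled GFP+ cells, 4.96, 5.17, 5.25 and 5.28 in vehicle titled GFP− cells and 5.07, 5.54, 5.45 and 5.43 in vehicle titled GFP+ cells. Cxcl14, an epithelial chemokine, read 4.49, 4.07, 4.59 and 4.26 in odor titled GFP− cells and 4.36, 4.18, 4.61 and 4.37 in odor titled GFP+ cells. Vehicle pools gave 4.64, 4.42, 4.13 and 4.19 in titled GFP− cells and 4.11, 4.21, 4.87 and 4.52 in titled GFP+ cells, and both pairs of groups overlapped. None of Cxcl12, Ackr3, Ccl2 and Cxcl14 passed in either fraction comparison, and a signal below background is a limit of detection, not a measure of absence.

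Genes that carry the signal inside the cell were examined as a separate list of 30, of which 24 were measured. Of these, 19 were lower and 1 was higher in titled GFP− cells, in odor and in vehicle pools alike. Over all features 9.98% were lower and 12.2% higher with odor, and 9.82% and 7.05% with vehicle. Some of these calls rest on signals near background. Fgr and Prex1 were above it on 1 of 4 titled GFP+ arrays in each treatment, and Rgs1, Pik3cd, Arrb1 and Pik3r5 on 2 with odor. Pik3cg, the phosphoinositide 3-kinase subunit of leukocytes, differed by -7.06 ± 0.45 log2 units with odor and -6.67 ± 0.45 with vehicle (SE, past the threshold in both). Rac2, the GTPase of blood cells, differed by -6.64 ± 0.48 and -6.60 ± 0.48. Dock2, which activates Rac in migrating leukocytes, differed by -5.80 ± 0.50 and -5.36 ± 0.50. These fitted sizes rest on titled GFP− signals below background and are no bounds. Gnai2, the inhibitory G protein subunit used by chemokine receptors, was also lower (-5.62 ± 0.34 and -5.88 ± 0.34), while Gnb1, a G protein subunit used in many cells, showed differences of 0.0046 ± 0.10 and 0.03 ± 0.10. Plcb3, a phospholipase C, was the gene that was higher (0.66 ± 0.14 and 0.41 ± 0.14, adjusted p of 0.0024 and 0.047). Among 7 measured genes related to chemokines but outside the naming rule, Ccrl2 (an atypical chemerin receptor), C5ar1 (a complement receptor) and Dpp4 (a protease that trims chemokines) were lower in both treatments. Rarres2, the chemerin gene, was higher with vehicle (0.55 ± 0.15, adjusted p = 0.019), below background in both fractions.

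Odor exposure was the other comparison, made within each titled fraction. No chemokine or receptor passed in titled GFP− cells, where limma called 0% of all features, although 3 of 60 members and 4.11% of all features had an unadjusted p under 0.05. In titled GFP+ cells 0% of all features passed too, and 6 of 60 members and 10.3% of all features had an unadjusted p under 0.05. The difference of the fraction differences between odor and vehicle pools gave 0% as well, with 3 of 60 members and 3.78% of all features at an unadjusted p under 0.05. Of the 6 members above background on an array in titled GFP− cells, all had a 95% interval of the odor effect within 1 log2 unit of 0. In titled GFP+ cells this held for 9 of 16 such members. Cxcr2 had one of the widest intervals there, -1.05 to 1.85, and that of Ccl3 was -1.60 to 0.70. For members below background in both groups an interval sets no limit on a change in expression.

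Ccl25 had the smallest p of the members in titled GFP− cells and in the interaction. Its odor effect was -0.44 log2 units in titled GFP− cells (95% interval -0.77 to -0.10, limma unadjusted p = 0.0142, adjusted p = 0.999) and 0.37 in titled GFP+ cells (0.03 to 0.71, limma unadjusted p = 0.0337, adjusted p = 0.44). The interaction was -0.81 ± 0.22 (SE, limma unadjusted p = 0.00246, adjusted p = 1). The other members named by smallest p did not pass either: Cxcl13, Ccr1, Cxcr6 and Ccl19 in titled GFP− cells, the second Ccl21b feature, Ccl12, Ccl21a and Ackr2 in titled GFP+ cells, and Cxcl13, Ccl19, Ccr8 and Ackr2 in the interaction. Ccr1 read 0.74 higher with odor in titled GFP− cells, below background in both groups. Ccl21a, a lymph node chemokine, read 6.73, 7.35, 7.73 and 6.87 with odor and 6.45, 6.83, 6.55 and 6.86 with vehicle in titled GFP+ cells, a difference of 0.50 with an adjusted p of 0.432. The second Ccl21b feature, Ccl12, Cxcl13, Ackr2, Ccr8, Cxcr6 and Ccl19 were below background on all 16 arrays.

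**Figure D5:**
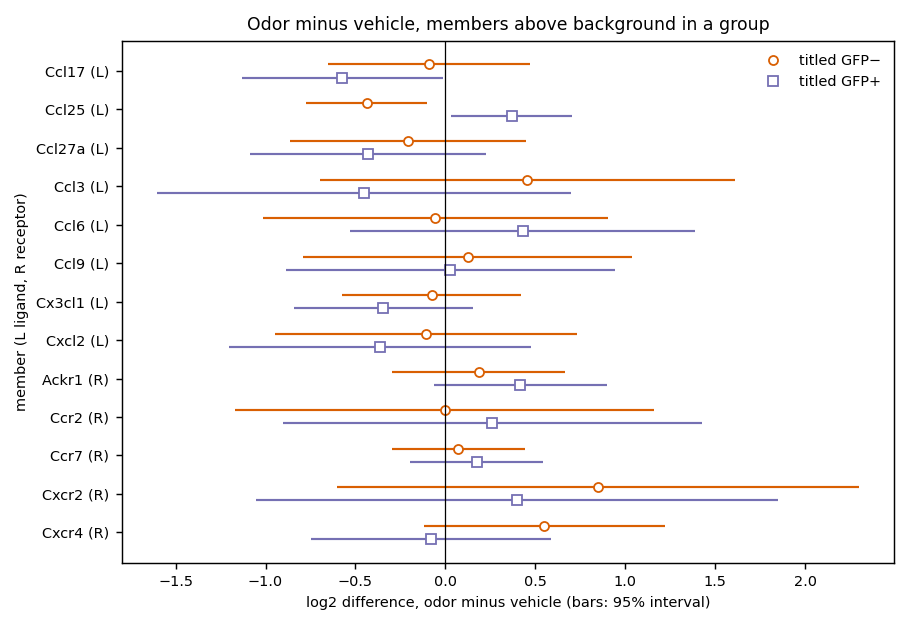
Fitted log2 differences, odor minus vehicle, with 95% intervals for the 13 members above background in a group (L ligand, R receptor; circles: titled GFP− cells; squares: titled GFP+ cells; all symbols are open because no adjusted p was under 0.05). The Ccl25 intervals lie on opposite sides of 0, and the titled GFP− intervals of Ccl3, Ccl6, Ccl9, Ccl17, Cxcl2, Ccr2, Cxcr2 and Cxcr4 rest on signals below background.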

How the data were processed

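Expression was measured on 16 Affymetrix Clariom S arrays, 4 per group, with input RNA of 50 to 100 ng according to the labels. The values deposited by the authors were used as log2 signals, a unit read from their range. The submitters' processing notes name Affymetrix Expression Console, without version. How background was corrected and arrays normalized is not given in the sources used here. The mice numbered 24 and the fractions 16 with 3 mice each, so the 2 fractions with 1 pool number share their mice. Deviations from group means correlated at 0.0957 to 0.337 between fractions of a pool, and at 0.147 to 0.547 between odor and vehicle arrays of the same number.

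A limma 3.58.1 model (R 4.3.3) over the 4 groups was fitted to all 19572 features with a gene symbol, and its moderated tests (two-sided) were adjusted by Benjamini-Hochberg over all of them at 0.05. It tested 5 comparisons, namely titled GFP− against titled GFP+ within each treatment, odor against vehicle within each fraction, and the interaction. Where a group had no array above background, only a bound was given. Promoters came from RefSeq GRCm38.p6, and figures were drawn with matplotlib 3.10.9. Pools of different mice are the replicates, so the spread holds both animal and technical differences.

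Values by array were given for the members past the threshold and above background with the largest vehicle fraction difference (up to 6 ligands and 6 receptors), for 13 preset members, and the 5 members with the smallest p were named where fewer than 5 passed. Members, lists and rules were chosen with earlier results of these data known. Values by array of other members were added after they were seen. The number of arrays limits the precision. On simulated data for the vehicle fraction comparison over 19572 features, the same model recovered 64% of changes of 1 log2 unit and 96% of changes of 2, with 3.03% of calls false. The simulation changed 100 features of each size, a far smaller share than passed here. Its noise was independent between arrays, whereas the real arrays deviated together by pool and by replicate number. These rates may therefore not hold for the real data. Alternatives were pool blocks, renewed quantile normalization, 2 centrings, other background levels, fits on fewer groups or features, and leaving out each replicate.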

Additional observations from a re-analysis of the deposited data

Results flagged for a closer look

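In 128 groups of 4 arrays from 32 members, a single array stood apart from its group in 10 by Dixon's test, and chance alone marks about 1 group in 20. These are given as log2 signals. Most lie below background. Ccl11 read 4.96 on vehicle titled GFP− replicate 4, above the other 3 at 4.81. Ccl17 read 5.76 on odor titled GFP− replicate 1, below the others at 6.53 to 6.68. Ccl19 read 2.79 on odor titled GFP− replicate 1, below 3.18 to 3.24, and 3.11 on vehicle titled GFP− replicate 3, above 2.75 to 2.79. Ccl21a read 6.75 on odor titled GFP− replicate 4, below 7.12 to 7.18. Ccl6 read 7.89 on odor titled GFP+ replicate 4, below 9.76 to 10.02. Ccl9 read 3.21 on vehicle titled GFP− replicate 2, below 4.99 to 5.15. Ccr9 read 6.17 on odor titled GFP+ replicate 1, above 4.67 to 4.81. Cx3cl1 read 6.91 on vehicle titled GFP+ replicate 3, below 7.33 to 7.41. Cxcl13 read 4.34 on vehicle titled GFP− replicate 1, below 4.60 to 4.65.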

How the results depend on the processing

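The number of members called in the fraction comparisons was 19 in odor and 16 in vehicle pools. It was 10 and 9 when only features above background were tested, a filter that keeps 13 members and calls 34.6% and 22.1% of the features it keeps. Centring on the median of tested features gave 25 with odor (12 higher, 13 lower) and 40 with vehicle (26 higher, 14 lower), as it moved the median over all features to 0.44 and 0.54. With this centring 57.2% and 71.5% of all features were called, so the members' share in both directions together lay below that of all features. Without centring it lay above. By direction, 1534 and 1529 of 19572 features were lower, and the members' share of lower calls stayed above that of all features. The centring made 9658 and 12456 features higher, and the members' share of higher calls lay below that. Centring on the olfactory receptor median moved it to -0.33 and -0.14 and gave 17 (0 higher, 17 lower) and 15 (0 higher, 15 lower). Leaving out 1 replicate gave 14 to 18 with odor and 13 to 17 with vehicle. Of all features, 13.7% to 21.7% were then called with odor and 10.9% to 19.8% with vehicle. With the pool as a fixed replicate block, which pairs the fractions of the same mice, 18 (2 higher) and 16 members were called. The block called 25.3% and 18.9% of all features. That block ended the odor call of Ccl19 (adjusted p = 0.0516) and no other member's call in either fraction comparison. In the odor comparisons and the interaction, 0 members were called under each alternative run. With the replicate number as a block, 1 of all features, no member, was called in each fraction.

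Of the results for named members under the alternatives, 1139 kept their side of the threshold, 50 lost the call, 14 gained one and 2 reversed. A change of sign counted as reversed only where the main or the alternative fit passed. The 1139 may therefore hold changes of sign between fits that did not pass. The reversals were Ccl19 in odor pools, at -0.0417 centred on the receptor median, and in vehicle pools, at 0.36 centred on the median of tested features. The cause was not tested. The 14 gained calls were all in vehicle pools. Centring on the median of tested features gave them for Ackr1, Ackr2, Ccl11, Ccl21a, the second Ccl21b feature, Ccr8, Cx3cl1, Cxcl13 and Cxcr6, and quantile normalization for Ccl21a and Cx3cl1. Cxcl13, below background, also passed at 0.47 with the pool as a random replicate block (adjusted p = 0.044), on only the groups compared (0.0236) and without odor replicate 1 (0.025). Of the other members above background, Ccl27a passed in both treatments with that centring. Ccr7 passed in odor pools with the random block, the receptor centring, the filter on background and without odor replicate 3, and in vehicle pools on only the groups compared. Calls ended without 1 replicate, at adjusted p of 0.0503 to 0.204, for Ccl25, Cx3cl1 and Cx3cr1 as given above, and in odor pools for Ccl11 (odor 1, 2 or 3), Ccl17 (any odor replicate, vehicle 2 or 3), Ccl19 (odor 2, 3 or 4, vehicle 1, 2 or 4), Cxcr5 (odor 1 or 4) and Ccl22 (any odor replicate, vehicle 3 or 4). In vehicle pools the Ccl22 call ended without odor 2 or vehicle 1, 3 or 4. The members above background numbered 19 by the median of the background probe sets and 1, Ccl27a, by the 95th percentile of the negative controls, which lay at 9.14 to 10.9. Signals near background limit most of the members.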
